A study of Rattus norvegicus with 27 samples.

Results

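The 9 genes described here, probe set by probe set, had a strongly lower RNA signal in tail motor neurons after spinal cord transection: Ccar1, Phip, Fmr1, Rapgef4, Cd55, Tm4sf1, Dcun1d5, Cdkn3 and Mospd2. They are 9 of the 9769 genes that had a probe set with a single gene symbol, and they had 13 probe sets among the 12913 tested. A probe set is a group of short oligonucleotides on the array that together give 1 signal for a transcript. The genes were chosen from these same arrays, because at least 1 probe set of each was much lower after transection than after sham operation at 21 or 60 days. The transected minus sham differences of these genes are therefore a description, with no test. Both probe sets of Ccar1, Phip, Cd55 and Tm4sf1 were taken, and the other 5 genes had 1 probe set each.

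Motor neurons that supply the tail came from male Wistar rats. In the transected groups (Spi-21 and Spi-60) the spinal cord was cut at S2 and a short piece was removed; in the sham groups (ShamC-21 and ShamC-60) a laminectomy left the dura closed. All groups received the retrograde tracer Fluorogold 5 to 7 days before the cells were taken and a painkiller after surgery, labelled neurons were laser-dissected from 10 µm sections, and their RNA was amplified in 2 rounds before it was hybridised to Affymetrix arrays. There were 6 sham and 8 transected arrays at 21 days and 5 sham and 8 transected arrays at 60 days, each from pooled neurons (100 to 200 per sample in the sample labels, 50 to 200 in the design text). The animals' age was not given in the sources used here, and no label links the samples to animals, litters or dissection days, so p-values reflect only the spread among the 27 samples. Values are log2 signals made by RMA (robust multi-array average), in which a difference of 1 is a change by a factor of 2.

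The proteins of these genes work in different parts of the cell. Ccar1 is a transcriptional coactivator that works with the Mediator complex. Phip is a bromodomain protein that also serves as a substrate receptor of cullin ubiquitin ligases and was named for its binding to an insulin receptor substrate. Fmr1 encodes FMRP, an RNA-binding protein that holds back translation of many neuronal messages and is lost in fragile X syndrome. Rapgef4 (Epac2) is a cAMP-activated exchange factor for the small GTPase Rap, and Cd55 (decay-accelerating factor) protects the cell surface from complement. Tm4sf1 is a membrane protein with 4 membrane spans best known from endothelial and tumour cells. Dcun1d5 helps to attach the ubiquitin-like protein Nedd8 to cullins, Cdkn3 is a phosphatase that acts on a cyclin-dependent kinase, and Mospd2 tethers the endoplasmic reticulum to other organelles.

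Of 14 motor neuron markers, 11 had a single-gene probe set, and the neurofilament genes Nefh, Nefm and Nefl lay in the top percentile of mean signal. The mean of the 11 markers lay between 10.7 and 11.5 log2 units in every group except the 60-day sham arrays, where it ranged from 9.34 to 11.3. None of the 11 passed at 21 days, and 3 rose at 60 days in the limma fit, against 10.7% of all genes. They were Slc18a3 by 1.48 (adjusted p = 0.000434), Nefh by 0.38 (adjusted p = 0.0322) and Prph by 0.92 (adjusted p = 0.0444). Their 60-day SDs were 0.756, 0.475 and 1.41 in sham and 0.444, 0.120 and 0.199 in transected arrays. Over all probe sets, ShamC-60 arrays 4 and 1 had median correlations of 0.924 and 0.956 with their own group, against 0.965 to 0.975 for the other 60-day sham arrays. The Spi-21 arrays ran from 0.943 to 0.964, so ShamC-60 array 1 was low against its own group and not over all arrays. The Spi-21 arrays fell into separate ranges of the GAPDH control's 3′ minus 5′ difference, 2.57 to 3.47 in arrays 1 to 4 and 0.985 to 1.46 in arrays 5 to 8. The beta-actin 3′ minus 5′ difference ran from 1.92 to 2.65 in the sham and from 2.75 to 3.77 in the transected arrays, so it moved with the operation. Values without ShamC-60 arrays 1 and 4 or without either set of Spi-21 arrays stand beside the transected minus sham differences that moved by over 1.5 times without them. This holds for the members and the genes named around them, except the second Cd55 probe set, whose differences lay near 0. For the cell type markers such values are not given. The part of RNA quality in these values was not tested.

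Some markers of glia and other cells that a dissected sample can hold also differed between the operations, while most of these markers were not called. Over all 9769 genes, 11.1% rose and 11.5% fell at 21 days (limma, adjusted p under 0.05). At 60 days 10.7% rose and 9.44% fell, and several of the counts below lie near these shares. Of 9 astrocyte markers 3 rose at 21 days and 1 at 60 days (limma): Gfap rose by 1.07 at 21 days (adjusted p = 0.0234), Slc1a2 by 0.39 (adjusted p = 0.00336) and Aldoc by 0.92 and at 60 days by 1.38 (adjusted p = 0.000871 and 1.94e-05). Their mean signal ran from 7.87 to 9.19 in the 21-day sham, 8.46 to 9.24 in the 21-day transected, 8.54 to 9.77 in the 60-day sham and 8.82 to 9.67 in the 60-day transected arrays. Of 9 oligodendrocyte markers 2 rose at 21 days, Mbp by 1.08 and Mag by 0.56 (limma adjusted p = 0.0453 and 0.0488), and Mag rose at 60 days by 0.70 (limma adjusted p = 0.0245), with means of 6.90 to 8.17, 7.58 to 8.22, 7.44 to 8.75 and 7.84 to 8.63 in the same order of groups. Of 8 fibroblast and meningeal markers 2 fell at 60 days, Col1a2 by 1.12 and Lum by 1.18 (limma adjusted p = 0.0233 and 0.0471). The mean of the 8 reached 7.96 in the 60-day sham arrays against at most 6.01 in the 60-day transected arrays. The 60-day SDs of Col1a2 and Lum were 1.42 and 1.56 in sham and 0.27 and 0.21 in transected arrays. Of 2 measured blood markers Hbb fell at 60 days by 1.38 (limma adjusted p = 0.00494), with an SD of 1.19 in sham and 0.33 in transected arrays of that day. The mean of the 2 ran from 6.72 to 8.81 in these sham and from 6.26 to 6.88 in these transected arrays. Of 8 interneuron markers Slc17a6 fell at 21 days by 0.90 (limma adjusted p = 0.0395), with means of 6.11 to 7.05 in sham and 6.02 to 6.67 in transected arrays of that day. Gad1 differed by −1.62 at 21 and −1.05 at 60 days and was not called (limma adjusted p = 0.0636 and 0.275). Its 21-day SDs were 1.30 in sham and 1.09 in transected arrays. Slc32a1 was also lower at 21 days (−0.32), while Gad2, Slc6a5, Pvalb, Npy and Sst were higher by 0.12 to 0.28, none of them called. Of 10 microglial markers 2 rose at 21 days and 1 at 60 days. The part of these cells in the members' differences was not tested. In pooled dissected cells, fewer cells with a transcript and less of it per cell cannot be told apart.

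In the limma fit, 9 of the 13 probe sets were called lower at 21 days at an adjusted p under 0.05, against 11.2% of all probe sets called lower. At 60 days 9 of the 13 were called lower, against 8.92% of all. Since these contrasts chose the genes, nothing is read from these shares. A single probe set, the second one of Ccar1, was called higher at 21 days (11.3% of all) and 0 at 60 days (10.2%). At each day 9 of the 13 were lower by over 1 log2 unit, against 1.28% of all probe sets at 21 and 1.71% at 60 days. With single arrays left out the 21-day count of lower calls was 8 (without ShamC-21 array 2 or Spi-21 array 1 or 3) to 10 (without ShamC-21 array 3, Spi-21 array 7 or Spi-60 array 5), and the 60-day count was 8 without any 1 of 17 arrays. The median difference of the 13 was −1.53 at 21 and −1.54 at 60 days, against 0.01 and 0.02 over all probe sets. All transected arrays lay below all sham arrays for 6 of the 13 at 21 days, against 2.22% of all probe sets, and for 3 at 60 days, against 3.42%.

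**Figure D1:**
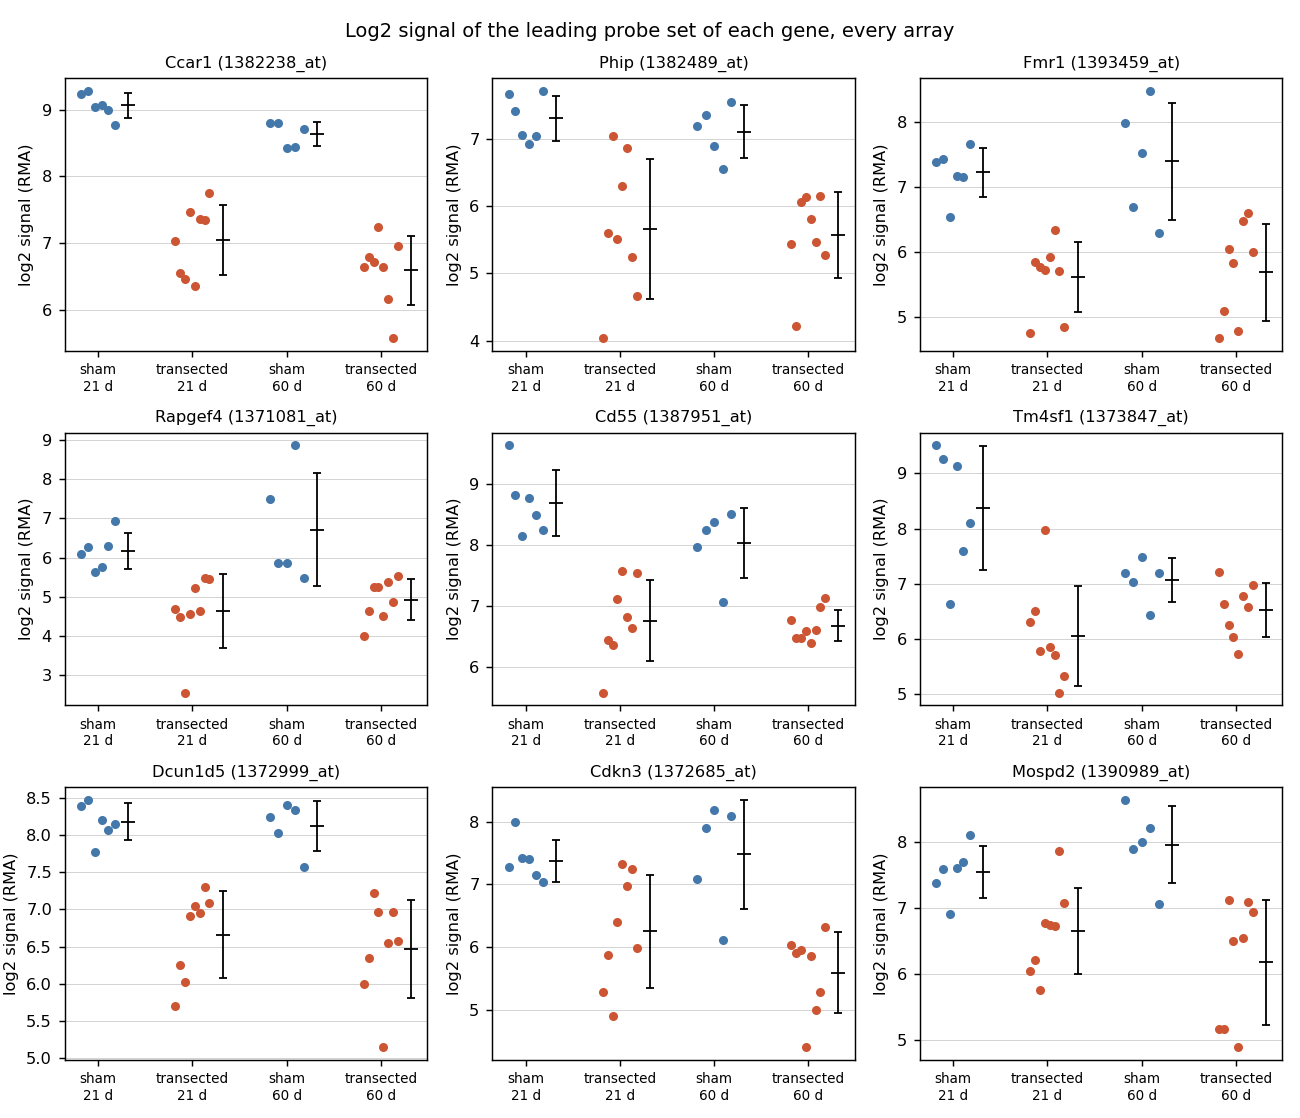
Log2 signal (RMA) of the probe set with the highest mean signal of each of the 9 genes, with 1 point per array, the 4 groups along the horizontal axis and bars for the mean and SD beside each group. For Ccar1 and Dcun1d5 the transected arrays of both days lie below every sham array, while Tm4sf1 overlaps at both days and its sham mean is 8.37 at 21 and 7.07 at 60 days.

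Ccar1 was lower at both days on its leading probe set and not on the other. Its leading probe set 1382238_at read 8.77 at lowest, 9.06 in the median and 9.28 at highest in the 21-day sham arrays, and 6.37, 7.19 and 7.76 in the 21-day transected arrays. At 60 days the 5 sham arrays read 8.80, 8.79, 8.43, 8.45 and 8.71, and the transected arrays 5.58, 6.69 and 7.25 (lowest, median, highest). The groups did not overlap at either day, and the highest transected array of either day (7.76) lay below the lowest sham array of either day (8.43). Transected minus sham was −2.02 ± 0.213 (standard error of the fit, as after every difference here; n = 8 and 6) at 21 days, 4.05-fold lower, and −2.04 ± 0.225 (n = 8 and 5) at 60 days, 4.11-fold lower. These were in place 6 and place 4 among the 12913 probe sets ordered by the size of the fall. Of the 13 probe sets, this one and that of Dcun1d5 had every transected below every sham array over both days together, a pattern shown by 0.519% of all probe sets.

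The second probe set of Ccar1, 1380549_at, went the other way at a low signal, in the 6.75th percentile of mean signal against the 76.0th for the leading one. It read 4.76, 4.93 and 5.14 in the 21-day sham and 4.83, 5.28 and 5.58 in the 21-day transected arrays (lowest, median, highest). At 60 days the sham arrays read 5.24, 5.03, 5.27, 4.82 and 4.97, and the transected arrays 4.91, 5.38 and 5.44. The groups overlapped at both days, with 5 of 8 transected arrays above every sham array at each. The difference was 0.32 ± 0.110 at 21 and 0.20 ± 0.117 at 60 days, and the call at 21 days was lost without any 1 of 9 arrays (ShamC-21 1, 2, 4, 5 or 6, Spi-21 1, 3, 4 or 7).

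The Ccar1 promoter is shown because this gene had the largest non-overlapping difference at both days. RefSeq places these 244 bases, up to the gene's annotated start, on the minus strand of GRCr8 at chr20:31271234-31271477. The capitals mark an E-box (CACGTG, the same on both strands), which 5.59% of 33469 RefSeq promoter windows of 250 bases hold.
Ccar1 promoter: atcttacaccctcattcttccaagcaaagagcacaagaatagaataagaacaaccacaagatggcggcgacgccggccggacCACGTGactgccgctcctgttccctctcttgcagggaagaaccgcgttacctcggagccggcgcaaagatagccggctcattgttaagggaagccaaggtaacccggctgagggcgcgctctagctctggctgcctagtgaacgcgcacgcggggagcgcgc

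Phip was much lower on 1 probe set, and the difference on the other was smaller. The leading probe set 1382489_at read 6.93, 7.24 and 7.71 in the 21-day sham and 4.03, 5.55 and 7.05 in the 21-day transected arrays (lowest, median, highest). The 60-day sham arrays read 7.19, 7.35, 6.90, 6.56 and 7.55, against 4.21, 5.64 and 6.14 in the transected arrays. At 21 days 7 of 8 transected arrays lay below every sham array and Spi-21 array 3 (7.05) lay among them, while at 60 days all 8 lay below. The differences were −1.65 ± 0.355 at 21 and −1.54 ± 0.375 at 60 days, 3.13-fold and 2.91-fold lower. Its 21-day transected arrays had an SD of 1.04, the widest among the members' 21-day transected arrays.

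The second Phip probe set, 1391524_at, read 5.47, 6.22 and 6.83 in the 21-day sham and 4.66, 5.90 and 6.22 in the 21-day transected arrays. At 60 days it read 6.09, 6.22, 6.37, 5.81 and 5.82 in sham and 5.24, 5.63 and 6.62 in transected arrays. The groups overlapped at both days, with 1 and 5 of 8 transected arrays below every sham array. The differences were −0.43 ± 0.230 and −0.33 ± 0.242, and the first moved to −0.28 without Spi-21 array 1, to −0.13 without Spi-21 arrays 1 to 4 and to −0.73 without arrays 5 to 8. Neither day's difference of this probe set was called in the fit.

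Fmr1 had 1 probe set, 1393459_at. It read 6.54, 7.28 and 7.65 in the 21-day sham and 4.76, 5.75 and 6.33 in the 21-day transected arrays, with no overlap. Its 60-day sham values were 7.97, 6.68, 7.52, 8.47 and 6.29, a spread (SD 0.898) wider than the 21-day sham SD of 0.381. The 60-day transected arrays read 4.67, 5.91 and 6.59, and 6 of 8 lay below every sham array. The differences were −1.61 ± 0.326 (3.04-fold lower) at 21 and −1.70 ± 0.344 (3.25-fold lower) at 60 days. The 2 highest sham values at 60 days belonged to ShamC-60 arrays 4 and 1, and without both arrays the 60-day difference was −1.14.

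The Fmr1 promoter is shown because RefSeq's window for it was the only one among the 8 members with a window that held the core of the NRF1 motif. The 177 bases end at the annotated gene start, on the plus strand of GRCr8 at chrX:152284680-152284856. Capitals mark, in order, the core of the NRF1 motif (CATGCGC, which here overlaps its own copy on the other strand, in 3.26% of the 33469 windows), a pair of GC boxes (GGGCGG, in 30.5%) and an E-box. Both strands were searched. A match is a description of the letters and does not show binding.
Fmr1 promoter: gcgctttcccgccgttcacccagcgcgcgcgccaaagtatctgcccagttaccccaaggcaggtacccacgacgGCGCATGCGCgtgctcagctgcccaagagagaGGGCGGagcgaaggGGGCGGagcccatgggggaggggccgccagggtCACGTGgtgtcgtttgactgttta

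Rapgef4, read by probe set 1371081_at in the 15.8th percentile of mean signal, was lower at both days. The 21-day sham arrays read 5.64, 6.18 and 6.94 and the transected arrays 2.55, 4.67 and 5.49 (lowest, median, highest), with no overlap. In the 60-day sham group it read 7.5, 5.85, 5.86, 8.86 and 5.49, and the transected arrays 4.02, 5.06 and 5.54. ShamC-60 arrays 4 (8.86) and 1 (7.5) lay above the rest, and 7 of 8 transected arrays lay below every sham array. The differences were −1.53 ± 0.429 (2.88-fold lower) at 21 and −1.78 ± 0.453 (3.44-fold lower) at 60 days. Without ShamC-60 arrays 1 and 4 the 60-day difference was −0.80, and the 21-day difference was −0.96 without Spi-21 arrays 1 to 4 and −2.09 without arrays 5 to 8.

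Cd55 was lower on its leading probe set and not on the other. The leading probe set 1387951_at read 8.14, 8.63 and 9.63 in the 21-day sham and 5.58, 6.73 and 7.57 in the 21-day transected arrays, with no overlap. Sham arrays of 60 days read 7.96, 8.25, 8.38, 7.07 and 8.51, and the transected arrays 6.4, 6.60 and 7.13. At 60 days 7 of 8 transected arrays lay below every sham array, the lowest of which was ShamC-60 array 4. The differences were −1.92 ± 0.263 (3.80-fold lower) at 21 and −1.35 ± 0.278 (2.56-fold lower) at 60 days, the latter −1.70 without ShamC-60 arrays 1 and 4.

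The second Cd55 probe set, 1370406_a_at, had a mean signal in the 17.6th percentile, against the 72.2nd for the leading one. It read 5.24, 5.41 and 6.09 in the 21-day sham and 5.15, 5.48 and 5.89 in the 21-day transected arrays. At 60 days the sham arrays read 5.43, 5.35, 5.53, 5.24 and 5.62 and the transected arrays 5.24, 5.50 and 5.77. The groups overlapped almost wholly, with 1 transected array at 21 days and 0 at 60 days below every sham array. The differences were −0.07 ± 0.128 and 0.06 ± 0.135, and the first ran from −0.13 to 0.04 when single arrays were left out.

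Tm4sf1 was called lower on both probe sets at 21 days and on the second probe set at 60 days, while the leading probe set was not called at 60 days. The leading probe set 1373847_at read 6.64, 8.61 and 9.51 in the 21-day sham and 5.02, 5.82 and 7.97 in the 21-day transected arrays (lowest, median, highest). The 60-day sham arrays read 7.20, 7.03, 7.49, 6.43 and 7.19, and the transected arrays 5.72, 6.61 and 7.22. At 21 days 7 of 8 transected arrays lay below every sham array, and at 60 days 3 of 8 did. The differences were −2.31 ± 0.394 (4.97-fold lower) and −0.54 ± 0.416 (1.46-fold lower), in place 5 and place 1113 by size of fall. At 21 days the difference was −2.89 without Spi-21 arrays 1 to 4 and −1.73 without arrays 5 to 8.

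The second Tm4sf1 probe set, 1378305_at, lay in the 3.90th percentile of mean signal. It read 5.32, 6.48 and 7.32 in the 21-day sham and 3.86, 4.65 and 5.19 in the 21-day transected arrays, with no overlap. At 60 days the sham arrays read 5.6, 5.06, 5.97, 4.59 and 5.08 and the transected arrays 2.17, 4.35 and 5.23, 5 of which lay below every sham array. The differences were −1.87 ± 0.370 and −1.09 ± 0.390. Of 14 endothelial markers 8 were measured, none at 0, and their mean signal ran from 6.28 to 6.50 in the 21-day sham, 6.27 to 6.71 in the 21-day transected, 6.38 to 7.07 in the 60-day sham and 6.34 to 6.88 in the 60-day transected arrays. None of the 8 passed at 21 days in the limma fit. At 60 days Esam was higher by 0.41 (adjusted p = 0.0299) and Abcb1a differed by −0.69 (adjusted p = 0.0386). Whether endothelial RNA took part in the Tm4sf1 difference was not tested.

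The Tm4sf1 promoter is shown as the contrast to the others: its GC content of 45.6% was the only one of the 8 below the median of all windows, 51.2%. RefSeq places it on the minus strand of GRCr8 at chr2:143616177-143616426. The capitals mark a CCAAT box read on the other strand, which 34.0% of all windows hold on 1 strand or the other.
Tm4sf1 promoter: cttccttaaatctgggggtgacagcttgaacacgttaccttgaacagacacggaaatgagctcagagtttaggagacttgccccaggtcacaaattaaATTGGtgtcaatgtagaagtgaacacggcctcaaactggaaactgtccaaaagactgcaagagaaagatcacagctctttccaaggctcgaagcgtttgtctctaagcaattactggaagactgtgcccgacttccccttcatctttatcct

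**Figure D2:**
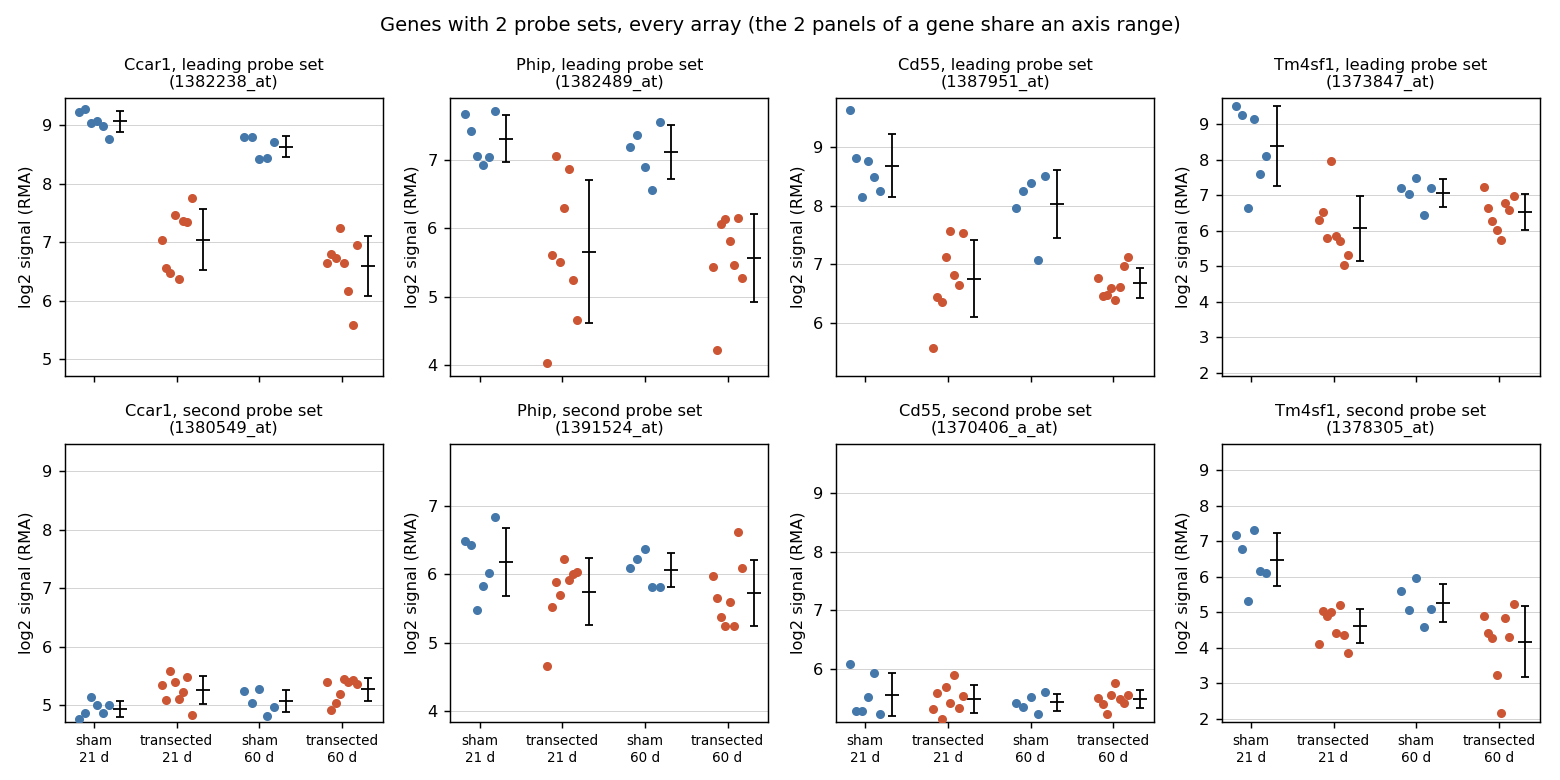
Log2 signal (RMA) of both probe sets of Ccar1, Phip, Cd55 and Tm4sf1, with 1 point per array, groups along the horizontal axis, and bars for mean and SD; the upper and lower panel of a gene share 1 axis range. The lower panels of Ccar1 and Cd55 show no lower transected group (differences of 0.32 and −0.07 at 21 days), that of Phip a small one (−0.43) and that of Tm4sf1 a large one (−1.87).

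Dcun1d5 had 1 probe set, 1372999_at, and shared with Ccar1 the full separation of the operations. It read 7.78, 8.18 and 8.48 in the 21-day sham and 5.70, 6.93 and 7.30 in the 21-day transected arrays. The 60-day sham arrays read 8.25, 8.04, 8.41, 8.34 and 7.58, and the transected arrays 5.14, 6.56 and 7.22. All 16 transected arrays lay below all 11 sham arrays. The differences were −1.52 ± 0.261 (2.87-fold lower) at 21 and −1.65 ± 0.276 (3.14-fold lower) at 60 days. Spi-21 arrays 1 to 4 (5.70 to 6.91) all lay below arrays 5 to 8 (6.96 to 7.30), and the 21-day difference was −1.08 without the first and −1.96 without the second of these sets.

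The Dcun1d5 promoter is shown because the gene did not overlap at either day. It lies on the plus strand of GRCr8 at chr8:12696910-12697159. Capitals mark a TATA box (TATAAA) that overlaps its own copy on the other strand and was in 12.9% of all windows, and a CRE half-site (TGACG, in 18.2%) read on the other strand.
Dcun1d5 promoter: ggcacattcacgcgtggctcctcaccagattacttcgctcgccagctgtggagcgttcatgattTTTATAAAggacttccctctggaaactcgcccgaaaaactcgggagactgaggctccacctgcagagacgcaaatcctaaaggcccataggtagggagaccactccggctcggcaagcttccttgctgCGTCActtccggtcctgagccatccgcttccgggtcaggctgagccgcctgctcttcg

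Over the promoters of 250 bases before the start, 8 of the 9 genes had a RefSeq entry. Their GC content ran from 45.6% to 75.2%, and 7 of the 8 lay above the median of 51.2% over all 33469 windows. They held 6 to 34 CpG pairs against a median of 5. The GC box was in 5 of the 8, the CRE half-site in 3, the CCAAT box, the E-box and the TATA box in 2 each and the NRF1 core in 1. No motif was shared by all 8. Some of the counted bases lay inside an annotated RefSeq gene: all 250 for Cd55, 87 or 99 for Cdkn3 by entry, 77 for Phip, 73 for Fmr1, 23 for Rapgef4 and 6 for Ccar1.

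Cdkn3, read by probe set 1372685_at, was lower at both days. The 21-day sham arrays read 7.03, 7.34 and 7.99, and the transected arrays 4.91, 6.20 and 7.33. At 60 days the sham values were 7.09, 7.90, 8.18, 6.12 and 8.09, and the transected arrays 4.41, 5.88 and 6.33. At 21 days 6 of 8 and at 60 days 7 of 8 transected arrays lay below every sham array. The differences were −1.12 ± 0.361 (2.18-fold lower) and −1.88 ± 0.381 (3.67-fold lower). At 21 days the difference was −0.49 without Spi-21 arrays 1 to 4 and −1.76 without arrays 5 to 8, and at 60 days it was −2.46 without ShamC-60 arrays 1 and 4, whose values of 7.09 and 6.12 were the lowest of their group.

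Mospd2, read by probe set 1390989_at, was called lower at 60 days and was not called at 21 days. Its 21-day sham arrays read 6.90, 7.59 and 8.09 and the transected arrays 5.76, 6.73 and 7.86. By 60 days the sham arrays read 8.64, 7.89, 7.99, 8.21 and 7.06, against 4.88, 6.52 and 7.12 in the transected arrays. At each day 6 of 8 transected arrays lay below every sham array. The differences were −0.90 ± 0.351 (1.87-fold lower) at 21 and −1.79 ± 0.370 (3.45-fold lower) at 60 days. The first was −0.45 without Spi-21 arrays 1 to 4 and −1.35 without arrays 5 to 8, and the second was −1.47 without ShamC-60 arrays 1 and 4.

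**Figure D3:**
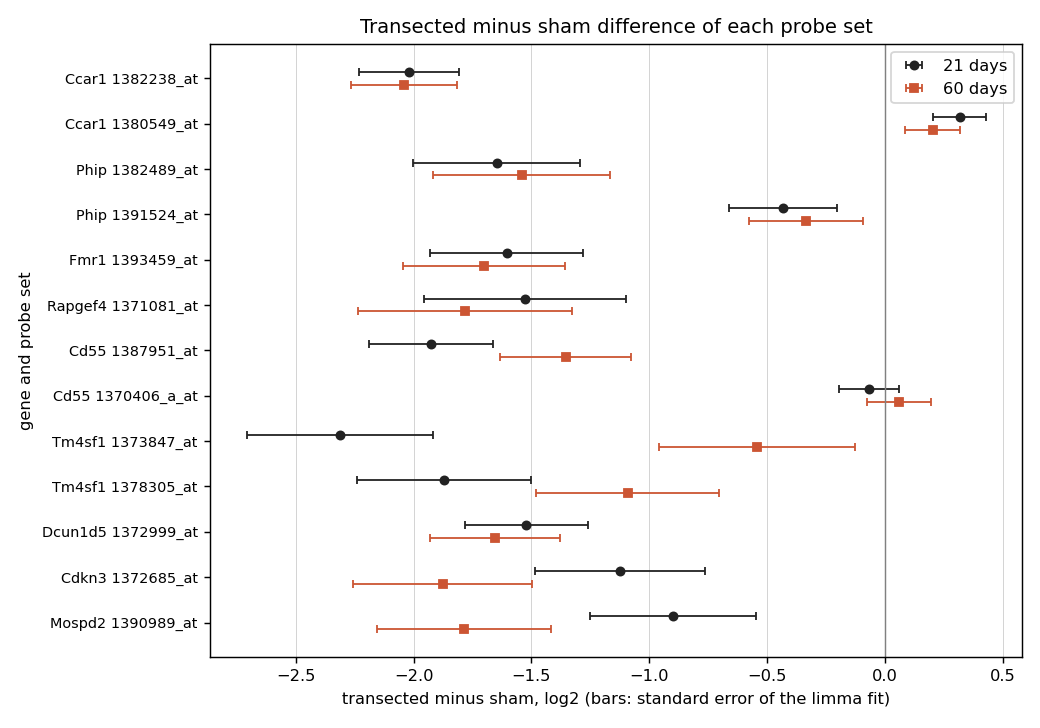
Transected minus sham difference (log2, horizontal axis) of each of the 13 probe sets at 21 days (circles) and 60 days (squares), with bars for the standard error of the limma fit. The leading probe sets lie between −2.31 and −0.90 at 21 days and between −2.04 and −0.54 at 60 days, while the second probe sets of Ccar1, Phip and Cd55 lie nearer 0.

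The number of members without overlap changed with the arrays left out. At 60 days it rose from 3 to 5 without ShamC-60 arrays 1 and 4, while the share of all probe sets rose to 5.95%. At 21 days it was 8 without Spi-21 arrays 1 to 4 (4.80% of all) and 8 without arrays 5 to 8 (9.25% of all). Fewer arrays in a group overlap less often by construction.

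The comparisons between days within each operation were not themselves used in the choice and were tested. They share arrays with the contrasts that were, so a member chosen at 1 day leans toward a change between days. Nothing is therefore read from the members' counts in these comparisons. In sham arrays, 60 minus 21 days, none of the 13 probe sets was called, against 0% of all, and 3 of the 13 had an unadjusted p under 0.05, against 3.97% of all. The leading Tm4sf1 probe set was lower at 60 days by 1.31 ± 0.441 log2 units (limma, unadjusted p = 0.00626, adjusted p = 0.999) and the second by 1.22 ± 0.415 (unadjusted p = 0.00647, adjusted p = 0.999 in limma). Cd55's leading probe set differed by −0.65 ± 0.295 (limma, unadjusted p = 0.0357, adjusted p = 0.999), and by −0.31 without ShamC-60 arrays 1 and 4. No difference of either gene between the sham groups passed the threshold.

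Between the transected groups, 60 minus 21 days, 0 of the 13 were called, against 0.0852% of all probe sets, and 1 of the 13 had an unadjusted p under 0.05, against 13.2% of all. That was Ccar1 1382238_at, at −0.45 ± 0.197 (limma, unadjusted p = 0.0303, adjusted p = 0.319), and −0.29 without Spi-21 arrays 5 to 8. Cdkn3 differed by −0.65 ± 0.334 (limma adjusted p = 0.406). It was −1.29 and called without Spi-21 arrays 1 to 4 (limma adjusted p = 0.0353), and −0.02 without arrays 5 to 8. The members' adjusted p ran from 0.319 to 0.998.

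The change of the transected minus sham difference between days is built from the contrasts that chose the genes, so the members' values are a description, and nothing is read from their count. Of the 13 probe sets 0 were called in limma, against 0% of all, and 1 had an unadjusted p under 0.05, against 7.01% of all. The 60-day minus the 21-day difference was 1.77 ± 0.572 for Tm4sf1 1373847_at, 2.35 without Spi-21 arrays 1 to 4 and 1.19 without arrays 5 to 8. It was 0.78 ± 0.538 for the second Tm4sf1 probe set, −0.89 ± 0.510 for Mospd2, −0.75 ± 0.524 for Cdkn3 and −0.02 ± 0.309 for the leading Ccar1 probe set. Without Spi-21 arrays 5 to 8 it was −0.43 for Mospd2 and −0.12 for Cdkn3. Without Spi-21 arrays 1 to 4 it was −1.34 for Mospd2 and −1.39 for Cdkn3. Members chosen for 1 day lean toward that day.

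The agreement of probe sets of 1 gene was tested on what the choice did not use, the deviation of each array from its group's mean over the 27 arrays (4 genes, permutation within groups, two-sided, Benjamini-Hochberg over the 4). The Tm4sf1 probe sets went together, with r = 0.70 (permutation p = 1e-05, the smallest 100000 resamples can give, adjusted p = 4e-05) and rho = 0.79 (permutation, adjusted p = 4e-05). Without the 2 arrays farthest from the median r was 0.72, and within groups it was 0.95 in sham and 0.46 in transected arrays of 21 days and 0.92 in transected arrays of 60 days. The Cd55 pair had r = 0.48 (permutation p = 0.0240, adjusted p = 0.0480) and rho = 0.49 (permutation, adjusted p = 0.0430). These adjusted p lay near the threshold, and leaving out any 1 of 15 arrays took that of r above 0.05. Of single arrays, ShamC-21 array 1 moved r most, to 0.35 (permutation, adjusted p = 0.150). Without the 2 farthest arrays r was 0.29 (permutation p = 0.180). The Phip pair had r = 0.39 (permutation p = 0.0729, adjusted p = 0.0972), rho = 0.25 (permutation, adjusted p = 0.302) and 0.18 without the 2 farthest, and it passed only without Spi-60 array 4 (r = 0.45, permutation, adjusted p = 0.0497). The Ccar1 pair had r = −0.28 (permutation p = 0.230, adjusted p = 0.230) and rho = −0.20 (permutation, adjusted p = 0.366), and was below 0 in each of the 3 groups of 6 or more arrays (−0.49, −0.21 and −0.43). Of these 4 pairs, that of Tm4sf1 was the only one to pass under every alternative run.

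Among the leading probe sets, the deviations of members from their group means were compared over 36 pairs, an analysis added after the values were seen. The median r was 0.13, the range −0.35 to 0.83, and 5 pairs had an adjusted p under 0.05 by permutation, all among Fmr1, Rapgef4, Dcun1d5 and Mospd2. The share over pairs of all probe sets was not computed, so nothing particular to these genes is read from this count. Each of these 4 genes had a higher r with a gene outside the members: 0.91 for Rapgef4, 0.90 for Mospd2, 0.89 for Dcun1d5 and 0.86 for Fmr1. Dcun1d5 and Mospd2 had r = 0.83 (permutation p = 1e-05, adjusted p = 0.00036) and rho = 0.76 (permutation, adjusted p = 0.0018), with r = 0.81 without the 2 arrays farthest from the median and 0.80 with Spi-21 arrays 1 to 4 and 5 to 8 centred apart. Within groups r was 0.43 in the 21-day sham, 0.88 in the 21-day transected and 0.85 in the 60-day transected arrays. Rapgef4 and Mospd2 had r = 0.64 (permutation, adjusted p = 0.00162), rho = 0.81 (permutation, adjusted p = 0.00036) and r = 0.75 without the 2 farthest. Fmr1 and Mospd2 had r = 0.67 (permutation, adjusted p = 0.0127), rho = 0.62 (permutation, adjusted p = 0.0238) and r = 0.57 without the 2 farthest, with 0.86 in the 21-day sham, 0.07 in the 21-day transected and 0.92 in the 60-day transected arrays.

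The other pairs of the same genes were less steady. Fmr1 and Dcun1d5 had r = 0.60 (permutation, adjusted p = 0.0158) and rho = 0.51 (permutation, adjusted p = 0.0641), with r = 0.54 without the 2 farthest arrays and an adjusted p of 0.0526 by permutation without Spi-21 array 1. Rapgef4 and Dcun1d5 had r = 0.50 (permutation, adjusted p = 0.0248) and rho = 0.58 (permutation, adjusted p = 0.0235), which fell to r = 0.38 (permutation, adjusted p = 0.172) with Spi-21 arrays 1 to 4 and 5 to 8 centred apart and lost the call without Spi-21 array 7 (permutation, adjusted p = 0.0554). Cd55 and Tm4sf1 had r = 0.37 (permutation, adjusted p = 0.327), 0.33 without ShamC-60 arrays 1 and 4 (permutation, adjusted p = 0.508), and passed with the same centring (r = 0.69, permutation, adjusted p = 0.00477). Ccar1 had no pair past the threshold, with r from −0.35 with Fmr1 to 0.18 with Cdkn3. Arrays share amplification and normalization, and the part of these in the relations was not tested.

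**Figure D4:**
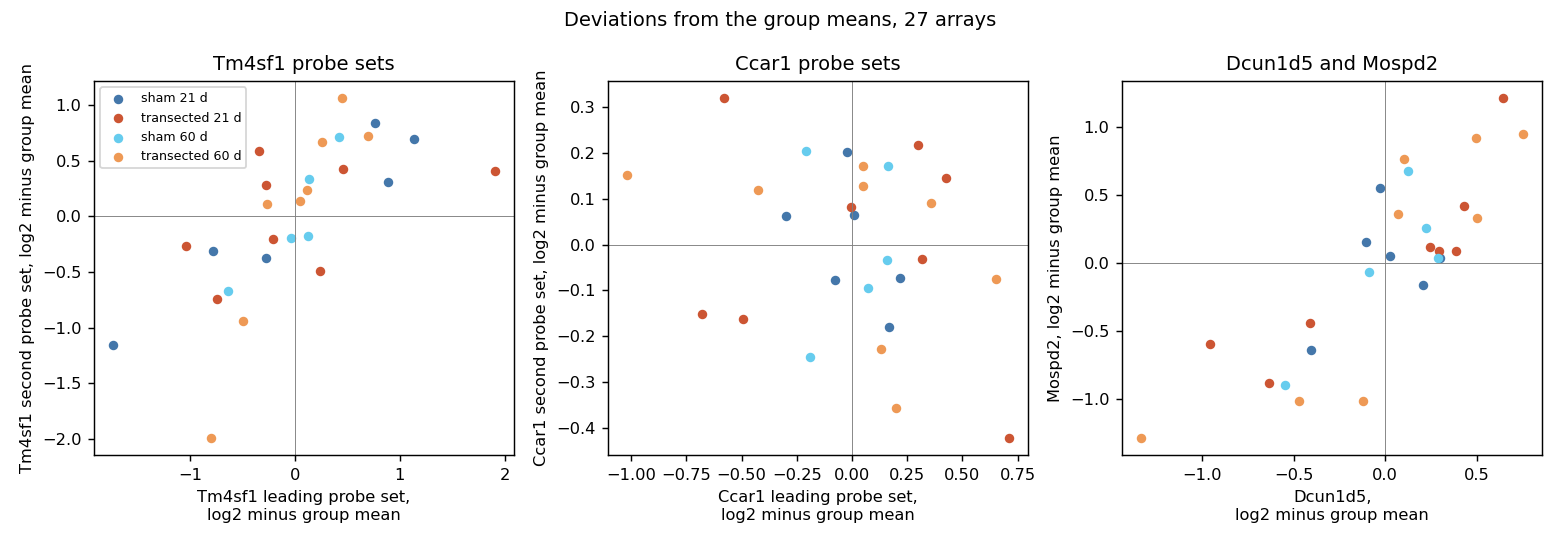
Deviation of each of the 27 arrays from its group's mean (log2) for the probe sets of Tm4sf1 (left), those of Ccar1 (middle) and for Dcun1d5 against Mospd2 (right), coloured by group. The points rise together for Tm4sf1 (r = 0.70) and for Dcun1d5 and Mospd2 (r = 0.83) and do not for Ccar1 (r = −0.28).

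The genes most like each member were taken by the highest r of within-group deviations over the 27 arrays, as a description. Rapgef4 was most like Snrnp27 (0.91), Sdcbp (0.89) and Tmem106b (0.89), Mospd2 most like Cyp20a1 (0.90), C1galt1c1 (0.87) and Ncbp2 (0.87), and Dcun1d5 most like Lypla1 (0.89), Srp9 (0.89) and the Mediator subunit gene Med7 (0.88). Fmr1 was most like Cul3 (0.86), which encodes a cullin, Bnip2 (0.84) and Cpeb4 (0.84), an RNA-binding protein. For Cd55 the closest were Txn1 (0.83), Dlgap5 (0.82) and C15h8orf58 (0.82), and for Tm4sf1 Pdpn (0.82), Arpc1b (0.80) and Pdlim1 (0.78). Phip was closest to Dnah17 (0.80), Gpr50 (0.72) and Cav2 (0.69), Ccar1 to Ptpro (0.79), Ina (0.74) and Tagln2 (0.69), and Cdkn3 to Tbc1d19 (0.79), Il3 (0.79) and 6430548M08Rikl (0.77).

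The pathways around the members were read from 9 lists, with the probe set of highest mean signal standing for each gene. Over all 9769 genes 11.1% rose and 11.5% fell at 21 days and 10.7% rose and 9.44% fell at 60 days (limma, adjusted p under 0.05), with medians of 0.01 and 0.02. Around Ccar1, 20 Mediator subunits were measured: at 21 days 1 rose and 7 fell (median −0.32) and at 60 days 2 rose and 6 fell (median −0.10). Med25 rose at both days, by 0.64 ± 0.109 and 0.63 ± 0.115 (limma adjusted p = 0.000226 and 0.000441), and Med20 fell at 21 days by 0.56 ± 0.122 (limma adjusted p = 0.00215). Med7 fell by 1.00 ± 0.259 and 1.16 ± 0.274 (limma adjusted p = 0.00776 and 0.00423), and Med21 by 0.52 ± 0.187 and 0.78 ± 0.197 (limma adjusted p = 0.0432 and 0.00713). The 21-day call of Med21 was lost without any 1 of 8 arrays. Its 21-day difference was −0.22 without Spi-21 arrays 1 to 4 and −0.83 without arrays 5 to 8. The count called lower varied with the arrays. At 21 days it was 1 of 20 without Spi-21 arrays 1 to 4, 11 without arrays 5 to 8 and 2 without ShamC-21 array 1. At 60 days it was 1 without ShamC-60 arrays 1 and 4. Calls over all probe sets also dropped, from 2917 to 1335 at 21 days without Spi-21 arrays 1 to 4. At 60 days they dropped from 2463 to 797 without ShamC-60 arrays 1 and 4. Without Spi-21 arrays 1 to 4, Med7 lost its 21-day call at −0.54 (limma adjusted p = 0.171), and Med20 kept its call at −0.29 (limma adjusted p = 0.0321). Med21 was −0.66 at 60 days without ShamC-60 arrays 1 and 4 (limma adjusted p = 0.0965), with the call lost. Without the same arrays Med7 was −1.08 at 60 days and still called (limma adjusted p = 0.0498).

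Around Dcun1d5 and Phip, 24 genes of cullin ligases and their neddylation were measured, of which 2 rose and 5 fell at each day (medians −0.10 and 0.00). Ube2m, the conjugating enzyme for Nedd8, rose by 0.85 ± 0.156 and 1.12 ± 0.165 (limma adjusted p = 0.000502 and 3.99e-05), above every sham array in 7 and 8 of 8 arrays. Cul7, a cullin, rose by 0.62 ± 0.182 and 0.99 ± 0.192 (limma adjusted p = 0.0166 and 0.000816). Uba3, the catalytic subunit of the Nedd8-activating enzyme, fell by 0.78 ± 0.208 and 0.96 ± 0.219 (limma adjusted p = 0.00919 and 0.00333), and Cul4a, the cullin of the ligases that Phip serves, fell by 0.99 ± 0.242 and 1.19 ± 0.256 (limma adjusted p = 0.00507 and 0.00205). Without Spi-21 arrays 1 to 4 the 21-day calls of Cul4a, Uba3 and Cul7 were lost, at −0.94, −0.63 and 0.50 (limma adjusted p = 0.052, 0.067 and 0.161), while Ube2m was 0.52 and still called (limma adjusted p = 0.0237). Without ShamC-60 arrays 1 and 4 the 60-day calls of Cul4a and Uba3 were lost, at −0.69 and −0.72 (limma adjusted p = 0.105 and 0.0895), and Cul7 was 0.52 and still called (limma adjusted p = 0.0347). With these arrays out, 0 of 24 fell at 21 days and 1 at 60 days, and 3 to 5 fell at either day with single arrays left out.

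Phip also touches insulin signalling, where 5 of 23 genes rose and 0 fell at 21 days and 3 rose and 1 fell at 60 days (medians 0.20 and 0.20). Igf1, a growth factor, fell at 60 days by 1.07 ± 0.221 (limma adjusted p = 0.00133), below every sham array in 8 of 8, and was 0.27 ± 0.209 at 21 days (limma adjusted p = 0.365). Igfbp6, a binding protein of insulin-like growth factors, rose at 60 days by 1.52 ± 0.282 (limma adjusted p = 0.000513). The kinase gene Akt2 rose by 0.33 ± 0.0823 at 21 days (limma adjusted p = 0.00555) and Pik3r2, a regulatory subunit of phosphoinositide 3-kinase, by 0.35 ± 0.0990 (limma adjusted p = 0.0123), the latter 0.27 and not called without Spi-21 arrays 1 to 4 (limma adjusted p = 0.132). Akt2 rose at 60 days by 0.29 ± 0.0869 and Pik3r2 by 0.41 ± 0.105 (limma adjusted p = 0.0186 and 0.00758). Without ShamC-60 arrays 1 and 4 these calls were lost, at 0.26 and 0.33 (limma adjusted p = 0.157 and 0.115). At 21 days 3 rose without Spi-21 arrays 1 to 4 and 9 without arrays 5 to 8, and at 60 days 1 rose without ShamC-60 arrays 1 and 4.

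Of 20 partners of FMRP and RNA granule genes, 3 rose and 5 fell at 21 days and 3 rose and 3 fell at 60 days. Fxr2, a paralog of Fmr1, rose by 0.45 ± 0.121 and 0.80 ± 0.127 (limma adjusted p = 0.01 and 0.000115), with all 8 transected arrays above every sham array at each day, while Fmr1 was lower. Eif4ebp2, a repressor of cap-dependent translation, rose by 0.44 ± 0.124 and 0.71 ± 0.131 (limma adjusted p = 0.0138 and 0.000473), and Purb by 0.51 ± 0.101 at 21 days (limma adjusted p = 0.00106). The 21-day call of Eif4ebp2 was lost without Spi-21 arrays 1 to 4, at 0.37 (limma adjusted p = 0.0821). Syncrip, an RNA-binding protein of transport granules, fell by 0.78 ± 0.153 at 21 days (limma adjusted p = 0.00096) and by 0.57 ± 0.162 at 60 days (limma adjusted p = 0.0143). Without Spi-21 arrays 1 to 4 the 21-day call of Fxr2 was lost at 0.32 (limma adjusted p = 0.0852), and Syncrip was −0.51 and still called (limma adjusted p = 0.035). Without ShamC-60 arrays 1 and 4 the 60-day difference of Syncrip was −0.52, about as large, with the call lost (limma adjusted p = 0.114). With these arrays out, 3 of 20 fell at 21 days and 1 at 60 days.

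Around Rapgef4, 5 of 21 genes of Epac and Rap signalling rose and 4 fell at 21 days, and 1 rose and 3 fell at 60 days. Rap1gap, which switches Rap off, rose at 60 days by 0.68 ± 0.115 (limma adjusted p = 0.000224), above every sham array in 8 of 8. Rap2a rose at 21 days by 0.42 ± 0.1 (limma adjusted p = 0.00445), as did Sipa1, another inactivator of Rap, by 0.48 ± 0.127 (limma adjusted p = 0.00868). Rims2, a presynaptic active zone protein that binds Epac2, fell by 0.51 ± 0.179 and 0.69 ± 0.189 (limma adjusted p = 0.0414 and 0.0122). Its 21-day call was lost without any 1 of 9 arrays. The 21-day difference of Rims2 was −0.19 without Spi-21 arrays 1 to 4 and −0.82 without arrays 5 to 8. At 21 days 1 rose and 1 fell without Spi-21 arrays 1 to 4, where Sipa1 was 0.24 and not called (limma adjusted p = 0.244), against 0.72 without arrays 5 to 8, and 0 fell without ShamC-21 array 1; at 60 days 1 fell without ShamC-60 array 1 or 4.

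Around Cd55, 3 of 23 complement genes rose and 1 fell at 21 days, and 2 rose and 1 fell at 60 days. Cr1l (Crry), a complement regulator of the rodent cell surface, fell at 60 days by 0.88 ± 0.159 (limma adjusted p = 0.000422), below every sham array in 8 of 8, and was −0.22 ± 0.151 at 21 days (limma adjusted p = 0.291). C5 fell at 21 days by 0.52 ± 0.115 (limma adjusted p = 0.0026), and Clu (clusterin) rose at 60 days by 0.95 ± 0.267 (limma adjusted p = 0.0139). C1qb, a microglial gene of the first complement component, rose at 21 days by 0.61 ± 0.163 (limma adjusted p = 0.0096), and was 0.45 and not called without Spi-21 arrays 1 to 4 (limma adjusted p = 0.0995). C1qb rose at 60 days by 0.48 ± 0.172 (limma adjusted p = 0.0497), a call lost without any 1 of 20 arrays. The mean of 10 microglial markers ran from 6.35 to 6.77 in the 21-day sham and from 5.92 to 7.77 in the 21-day transected arrays, and its part in the complement values was not tested. Without Spi-21 arrays 1 to 4, 0 complement genes rose at 21 days, and 1 rose without ShamC-21 array 1. With only the 60-day arrays in the fit, the difference of Clu was the same and its call was lost.

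Around Tm4sf1, 2 of 22 tetraspan genes rose and 5 fell at 21 days, and 3 rose and 2 fell at 60 days. Tspan13 fell by 0.58 ± 0.113 and 0.42 ± 0.119 (limma adjusted p = 0.000869 and 0.014), with 7 of 8 transected arrays lower than all sham arrays at each day. Tspan18 rose by 0.33 ± 0.0911 and 0.33 ± 0.0962 (limma adjusted p = 0.0122 and 0.017), above every sham array in 6 and 8 of 8. Its calls were lost without Spi-21 arrays 1 to 4 and without ShamC-60 arrays 1 and 4 (limma adjusted p = 0.127 and 0.147). Cd37 rose by 0.43 ± 0.121 at 21 days (limma adjusted p = 0.0138), and was 0.24 and not called without Spi-21 arrays 1 to 4 (limma adjusted p = 0.244). Tspan31 fell by 0.87 ± 0.194 at 21 days (limma adjusted p = 0.00271), against −0.39 without Spi-21 arrays 1 to 4, where the call was lost (limma adjusted p = 0.0829), and −1.34 without arrays 5 to 8. It fell at 60 days by 0.66 ± 0.204 (limma adjusted p = 0.0248). Without ShamC-60 arrays 1 and 4 this was −0.73, with the call lost (limma adjusted p = 0.0776). Of the list, 0 rose and 1 fell at 21 days without Spi-21 arrays 1 to 4, against 3 and 4 without arrays 5 to 8. At 60 days 0 rose and 1 fell without ShamC-60 arrays 1 and 4. Between 2 and 7 fell at 21 days when single arrays were left out.

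Around Cdkn3 and Ccar1, 3 of 25 cell cycle genes rose and 2 fell at 21 days, and 2 rose and 4 fell at 60 days. Cdk5, a kinase active in neurons after division has ended, rose by 0.82 ± 0.157 and 1.20 ± 0.166 (limma adjusted p = 0.000796 and 1.94e-05), with all 8 transected arrays above every sham array at each day. Cdk2, the kinase on which the Cdkn3 phosphatase acts, rose at 21 days by 0.46 ± 0.119 (limma adjusted p = 0.00793), and Ccna2, a cyclin, fell by 0.93 ± 0.189 (limma adjusted p = 0.00123). Ccar2, a paralog of Ccar1, rose by 0.27 ± 0.0869 and 0.45 ± 0.0917 (limma adjusted p = 0.0276 and 0.00117), opposite to the leading Ccar1 probe set. The 21-day call of Ccar2 was lost without any 1 of 4 sham arrays of that day and without either set of Spi-21 arrays. The count of falls at 60 days was 0 without ShamC-60 array 1 or 4, and that at 21 days was 1 without ShamC-21 array 1.

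Around Mospd2, 1 of 18 genes of membrane contact sites rose and 2 fell at 21 days, and 3 rose and 1 fell at 60 days. Pitpnm1 rose by 0.59 ± 0.108 and 0.80 ± 0.114 (limma adjusted p = 0.000475 and 2.91e-05), with all 8 transected arrays above every sham array at each day. Mospd3, of the same protein family as Mospd2, rose at 60 days by 0.47 ± 0.107 (limma adjusted p = 0.00326), and Stim1, the calcium sensor of the endoplasmic reticulum, by 0.42 ± 0.116 (limma adjusted p = 0.0127). Without ShamC-60 arrays 1 and 4 Stim1 was 0.45, about as large, with the call lost (limma adjusted p = 0.0574). Stard3nl fell at 21 days by 0.40 ± 0.0878 (limma adjusted p = 0.00229), below every sham array in 8 of 8. The number that fell ran from 1 to 4 at 21 days and from 0 to 1 at 60 days with single arrays left out.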

How the data were processed

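Tail motor neurons of 4 groups were measured on 27 arrays. The deposited table held 12919 probe sets as log2 signals, which the authors made by RMA per the submitters' processing notes. The RMA version and any filter on probe sets were not given in the sources used here. Leaving out the 6 beta-actin and GAPDH controls left 12913 probe sets (11880 with 1 gene symbol in the platform annotation, 320 with several, 713 with none listed). No filter on signal was applied. RMA normalizes all arrays to one another, so each value depends on all 27.

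One limma 3.58.1 fit in R 4.3.3 held the 4 groups, with eBayes at default settings, two-sided tests and Benjamini-Hochberg over all probe sets, and 0.05 was the threshold. Correlations were computed in Python 3.11.15 (numpy 2.4.6) and plotted with matplotlib 3.10.9. Both steps were tested on simulated data. The number of arrays limits precision, since arrays have no count depth. Levels of different probe sets were compared only to choose the leading probe set of a gene, for percentiles of mean signal and for the filter on signal.

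The members and lists were chosen with earlier results of these data known. All probe sets of the 9 genes are named, with the 3 genes most like each and up to 4 genes of each of 9 lists with the smallest adjusted p. Alternatives were array weights, trended and robust eBayes, repeated normalization, median centring, a filter on signal, a glial covariate, the groups compared alone, a replicate block and arrays left out. Promoters and motif shares came from RefSeq, build GRCr8. No genome was used.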

Additional observations from a re-analysis of the deposited data

Results flagged for a closer look

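In 3 of 52 groups of arrays (13 probe sets in 4 groups), 1 array lay far below the others by Dixon's 95% criterion; chance alone would mark about 1 group in 20. For the leading Phip probe set 1382489_at, Spi-60 array 2 read 4.21 and the next array 5.27. The second Phip probe set, 1391524_at, read 4.66 in Spi-21 array 1, and the next array read 5.52. For Rapgef4 1371081_at, Spi-21 array 3 read 2.55 and the next array 4.49. Each was the lowest array of a transected group, and without it the transected group was still lower in the mean at that day.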

How the results depend on the processing

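The transected minus sham differences of the 13 probe sets kept their sign under every alternative run, except those of the second Cd55 probe set, which lay near 0. Between the transected days 11 probe sets were called over all arrays, against 26 without ShamC-60 arrays 1 and 4, 630 without Spi-21 arrays 1 to 4, 52 without arrays 5 to 8, 2 with array weights, 2 with median centring, 4 with trended and robust eBayes, 6 with the glial covariate and 1 with only the groups compared; 1 member, Cdkn3, was then called lower without Spi-21 arrays 1 to 4. Between the sham days array weights gave 2 calls. The difference between days, built from the contrasts that chose the genes, gave 161 calls without Spi-21 arrays 1 to 4, with 1 member, Tm4sf1, called higher, and 3 with array weights. At 21 days 1335 probe sets were called without Spi-21 arrays 1 to 4 and 1811 among those above the median signal, against 2917, and 797 at 60 days without ShamC-60 arrays 1 and 4, against 2463. The filter tests fewer probe sets and left 5 members called lower at each day. The higher call of the second Ccar1 probe set went to 0 without Spi-21 arrays 1 to 4, with the glial covariate, with the filter and with only the groups compared. The Cd55 agreement lost its call without ShamC-60 arrays 1 and 4 (r = 0.45, permutation, adjusted p = 0.125) and with Spi-21 arrays 1 to 4 and 5 to 8 centred apart (r = 0.47, permutation, adjusted p = 0.0649). The cause was not tested.

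With single arrays left out, calls ranged from 2040 to 3177 at 21 days, 1538 to 2760 at 60 days and 1 to 83 between the transected days; members called lower from 8 to 10 and from 8 to 9, and called higher at 21 days from 0 to 1. The agreement ranged from −0.37 to −0.12 for Ccar1, 0.35 to 0.55 for Cd55, 0.16 to 0.46 for Phip and 0.64 to 0.76 for Tm4sf1. No label pairs samples by replicate number, and 9 of 35 same-number correlations of deviations from the group means were over 0.1 (range −0.31 to 0.33). Whether same-numbered samples belong together was not tested. The replicate block gave 3226 calls at 21 days, 3073 at 60 days and 10 between the transected days, with 10 and 9 members called lower.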
